A study of Mus musculus with 15 samples.

Results

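The 9 genes described here carry iron into, through and out of the intestinal epithelium or bind metals inside the cell. They are the iron uptake genes Tfrc, Cybrd1 and Slc11a2, the ferritin genes Fth1 and Ftl1, the iron export genes Slc40a1 and Heph, and the metallothionein genes Mt1 and Mt2. They were taken by symbol from the count files, which list 78298 genes, and all 9 were among the 17560 genes with enough counts to be tested. Organoids of the mouse small intestine, primary epithelial cultures grown from crypts, gave poly-A RNA for 15 libraries made of 3 replicates for each of 5 conditions. Every line carried a lentiviral transgene under the L30 promoter, a weak ubiquitous promoter, together with IRES_Puro for selection. The control, Halo-NLS, expressed V5-Halo-NLS, that is, the HaloTag with a nuclear localization signal. SOX9-mEGFP_budding and SOX9-Halo_budding expressed Sox9 fused to mEGFP-V5 or to Halo-V5, and still grew with buds. SOX9-mEGFP_spheroid and SOX9-Halo_spheroid carried the same Sox9 fusions after longer culture, when the organoids had become spherical, and each held an additional transgene, H2B-mScarletI-V5 with IRES_Neo in the former and H2B-mEGFP-V5 with IRES_Zeo in the latter. Each fusion was studied in a single transduced line, so p-values measure only the spread among replicates of that line. Halo-NLS and SOX9-mEGFP_budding were sampled at the same passage, SOX9-Halo_budding at a later one and both spheroids later still, so morphology, time in culture and the H2B transgene cannot be told apart.

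Dietary iron is reduced at the apical face of the enterocyte by the ferrireductase encoded by Cybrd1, enters through the divalent metal transporter encoded by Slc11a2, and leaves at the basolateral face through ferroportin, the product of Slc40a1, with the ferroxidase hephaestin, the product of Heph. Most other cells, and the basolateral side of crypt cells, take up transferrin-bound iron through the transferrin receptor encoded by Tfrc, and surplus iron is stored in ferritin shells built from the heavy chain of Fth1 and the light chain of Ftl1. Iron regulatory proteins bind short hairpins called iron-responsive elements (IREs). Such binding blocks translation where the hairpin lies in the leader of an mRNA and protects the mRNA from decay where it lies in the trailer. Metallothioneins are small cysteine-rich proteins that hold zinc and copper, and the zinc-sensing factor MTF1 drives their genes through metal response elements (MREs). The libraries measured the amount of mRNA, and neither its translation nor the metals themselves.

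The IRE sequences are shown because iron regulatory proteins act on the mRNAs of several members through them. A search was made in the GRCm39 genome and the GENCODE M39 annotation for a C, a stem of 5 bases, the loop CAGTGN with a last base other than G, and 5 bases that pair with the stem, G opposite T allowed. It found a hairpin in the 5′ untranslated region of Fth1, Ftl1 and Slc40a1 and 4 hairpins in the 3′ untranslated region of Tfrc. Each is given below from 5′ to 3′ on the strand of its gene, with the loop in capitals.
Fth1, chr19:9960097-9960123 (+): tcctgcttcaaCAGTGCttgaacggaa
Ftl1, chr7:45109204-45109230 (-): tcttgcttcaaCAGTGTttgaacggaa
Slc40a1, chr1:45964626-45964652 (-): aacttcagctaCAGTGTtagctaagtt
Tfrc, chr16:32450038-32450064 (+): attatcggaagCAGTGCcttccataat
Tfrc, chr16:32450417-32450443 (+): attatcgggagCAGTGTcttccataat
Tfrc, chr16:32450482-32450508 (+): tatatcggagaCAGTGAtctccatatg
Tfrc, chr16:32450529-32450555 (+): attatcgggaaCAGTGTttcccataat
Both ferritin hairpins have the same 5-base stem next to the loop, while the last base of the loop and a base further 5′ differ. The same letters were found in the 5′ untranslated region of 35 of 21069 genes (0.166%) and in the 3′ untranslated region of 178 of 21692 genes (0.821%). Cybrd1, Slc11a2, Heph, Mt1 and Mt2 had no match in these regions, which says only that this pattern is not there. Slc11a2 is known to have transcripts with an IRE in the trailer, so the pattern does not take in every such element.

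The MRE cores around the start of both metallothionein genes are shown because both genes fell in both spheroid lines. Mt2 (chr8:94898819-94900207) and Mt1 (chr8:94905710-94906955) lie on the plus strand in a row, with 5502 bases between them. TGCACNC and TGCGCNC were searched on both strands within 300 bases either side of the annotated start of the canonical transcript. The start used in these organoids was not determined, so a match past the annotated start need not lie in the mRNA. Matches are given on the plus strand with 5 flanking bases on each side and with the core in capitals. A core on the minus strand therefore reads as its reverse complement.
Mt1, chr8:94905689-94905705: cgctgTGCACACtggcg
Mt1, chr8:94905714-94905730: agctcTGCACTCcgccc
Mt1, chr8:94905732-94905748: aaaagTGCGCTCggctc
Mt1, chr8:94905796-94905812: ctgctGGGTGCAaaccc
Mt1, chr8:94905810-94905826: cccttTGCGCCCggact
Mt2, chr8:94899018-94899034: gcctcTGCACCCggccc
Mt2, chr8:94899113-94899129: cccttTGCGCTCagctc
Mt2, chr8:94899191-94899207: agggcGTGTGCAggctc
Mt2, chr8:94899245-94899261: gggtcGTGCGCAggccc
Mt2, chr8:94899299-94899315: agggcGTGTGCAggcgg
Mt2, chr8:94899318-94899334: ggggcGCGTGCAtggtg
Mt2, chr8:94899352-94899368: gctttTGCGCTCgaccc
Mt1 held 5 cores and Mt2 held 7. Of the 21770 windows searched, 46.9% held at least 1 core, 0.864% at least 5 and 0.289% at least 6, so a single core was common and the numbers around the metallothionein genes were not. Tfrc had 2 matches, which overlap each other, Slc11a2 had 1, and the other 5 members had none in these windows.

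**Figure D1:**
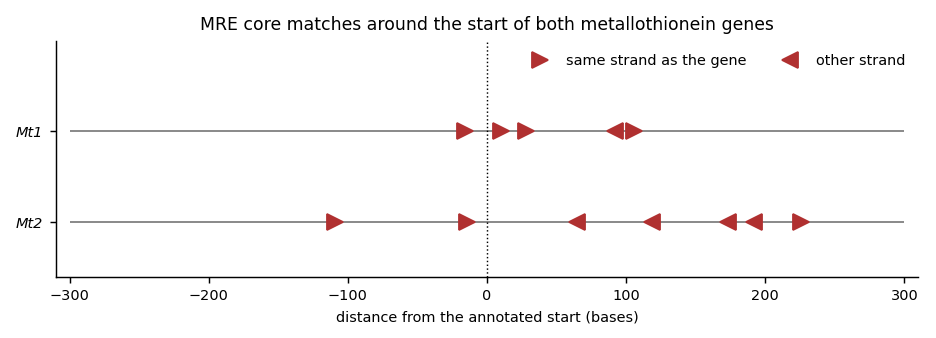
Position of each MRE core match relative to the annotated start (x axis, bases) for Mt1 and Mt2 (rows). The start used in these organoids was not determined. Triangles pointing right are matches on the strand of the gene and triangles pointing left are on the other strand; Mt1 has 5 and Mt2 has 7 within 300 bases either side.

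Between 28062722 and 40559766 reads per library were counted on genes (median 33491297), and log2 levels of replicates correlated at r = 0.960 to 0.994. Levels are given as CPM, the reads of a gene for every 1000000 reads of the library, with library sizes adjusted by TMM, a scaling for differences in composition. The targeted gene, Sox9, for which transgene and endogenous reads were counted together, was at 9.1 to 22.9 CPM in Halo-NLS and at 193 to 705 CPM in all SOX9 libraries except SOX9-Halo_budding replicate 1, which had 39.8 CPM. Without that library the same members were called in SOX9-Halo_budding against Halo-NLS, with 5.66 for Cybrd1 and -1.26 for Fth1 on the log2 scale (edgeR adjusted p = 0.00061 and 0.0078). The Halo-NLS libraries stood apart from one another in the number of genes with a count, 24214 to 40375. The 5 epithelial markers (Epcam, Cdh1, Vil1, Krt8 and Krt19) were present in every condition, with a summed level of 4437 to 9556 CPM, but 2 of them, Vil1 and Epcam, were called lower in SOX9-Halo_spheroid against Halo-NLS. Vil1, which encodes a protein of the brush border, was at 96.7 to 138 CPM there and at 1016 to 1752 CPM in Halo-NLS, and Epcam at 440.1 to 483 CPM and 919 to 1058 CPM, and the part of these falls in the results below was not tested. Summed levels of 7 mesenchymal markers reached 1.80 CPM, of 6 immune markers 5.42 CPM, of 3 endothelial markers 1.01 CPM and of 4 red cell markers 0.537 CPM, and Hbb-bs was at 0 in all libraries of every condition. The 5 enterocyte markers (Alpi, Apoa1, Apoa4, Fabp1 and Sis) summed to 4920.3 to 9664 CPM in Halo-NLS, 1238 to 6085 CPM in SOX9-mEGFP_budding, 3303 to 7041 CPM in SOX9-Halo_budding, 204 to 507 CPM in SOX9-mEGFP_spheroid and 1.75 to 5.50 CPM in SOX9-Halo_spheroid. All 5 fell in both spheroids against Halo-NLS, so the falls described below came beside a fall of enterocyte mRNA, and its part in them was not tested. The paper reports that markers of secretory lineages were lost as well, and their part was not tested either. In these bulk samples fewer cells of a type and less RNA per cell cannot be told apart.

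Mt1, Mt2, Fth1 and Slc11a2 were called lower in both spheroids against the control, and few members were called in budding organoids. A gene was called where edgeR's quasi-likelihood test gave a Benjamini-Hochberg adjusted p of at most 0.01 over all genes tested, the fold change was at least 2 and the mean normalized count at least 10. Against Halo-NLS, SOX9-mEGFP_spheroid had 4 members called lower (Mt1, Mt2, Fth1 and Slc11a2) and 1 called higher (Tfrc), where 12.1% of all genes tested were called lower and 15.3% higher. SOX9-Halo_spheroid had 6 called against the same control, all of them lower (Mt1, Mt2, Fth1, Cybrd1, Slc11a2 and Heph), beside 15.3% of all genes lower and 13.6% higher. In SOX9-Halo_budding 1 member was called higher (Cybrd1, against 2.49% of genes) and 1 lower (Fth1, against 1.26%). In SOX9-mEGFP_budding edgeR called 0 members, beside 1.99% of genes higher and 0.763% lower. There, 4 members had an unadjusted p under 0.05, as did 6047 of the 17560 genes tested, and DESeq2 also called 0 members. These 4 comparisons share the 3 Halo-NLS libraries.

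Within the SOX9-mEGFP line, spheroids against budding organoids had 3 members called, all lower (Mt1, Mt2 and Fth1), where 7.88% of all genes were lower and 8.55% higher. Within the SOX9-Halo line, 6 members were called lower (Mt1, Mt2, Cybrd1, Slc11a2, Slc40a1 and Heph) and 1 higher (Ftl1), where 14.7% of genes were lower and 10.5% higher. The median log2 fold change of the 9 members was -0.36 in the former and -2.27 in the latter, while that of all genes tested was -0.04 and -0.08. Between budding organoids of both lines, 1 member was called, Cybrd1, which was higher in SOX9-Halo_budding, where 0.29% of genes were higher and 0.165% lower. Between spheroids, 3 were lower in SOX9-Halo_spheroid (Mt2, Slc11a2 and Heph, against 9.58% of genes) and 2 higher (Fth1 and Ftl1, against 3.59%).

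**Figure D2:**
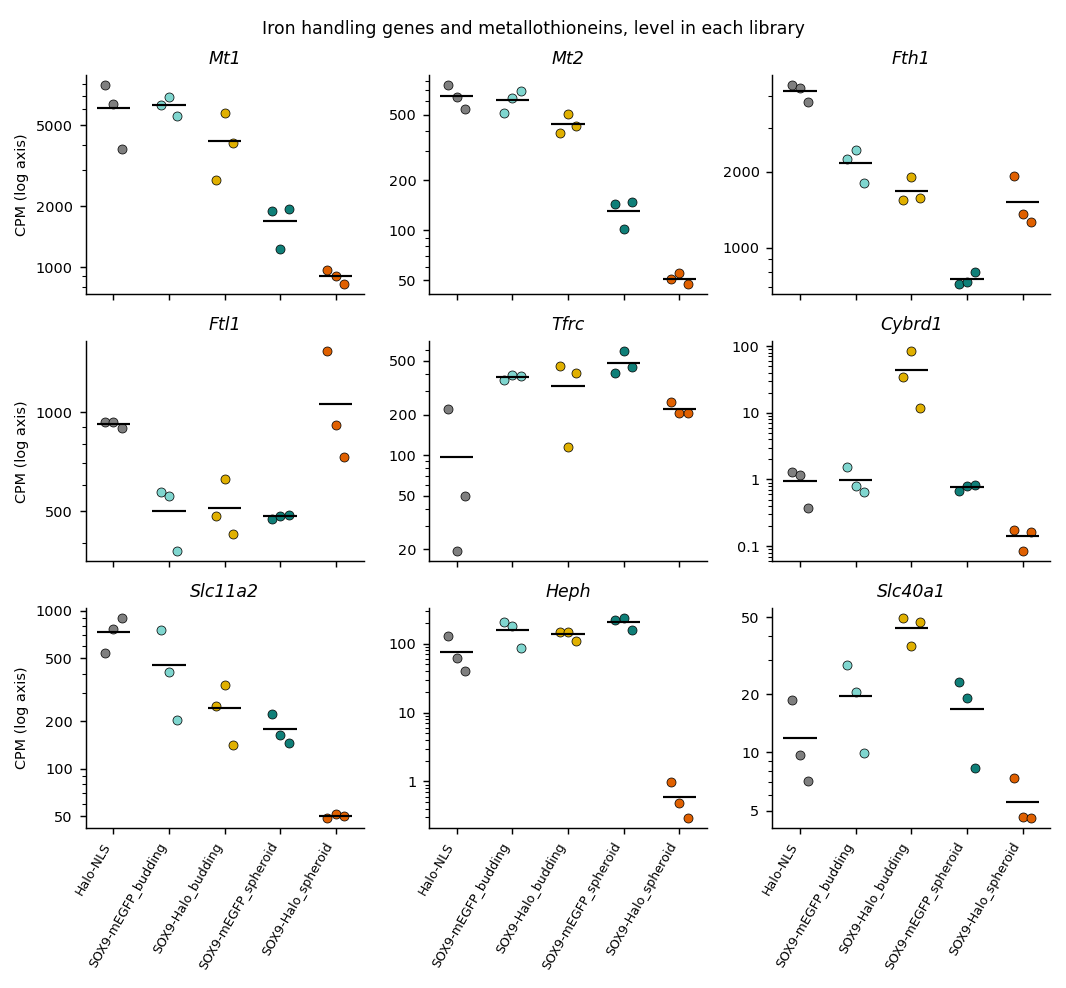
Level of each of the 9 genes (y axis, CPM on a log axis with its own range in each panel) in the 5 conditions (x axis). Points are the 3 libraries and lines the means; Mt1 and Mt2 are lower in all 6 spheroid libraries than in all 9 others, Heph is at or below 0.988 CPM in SOX9-Halo_spheroid alone, and Cybrd1 reaches 11.9 to 83.4 CPM in SOX9-Halo_budding alone.

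**Figure D3:**
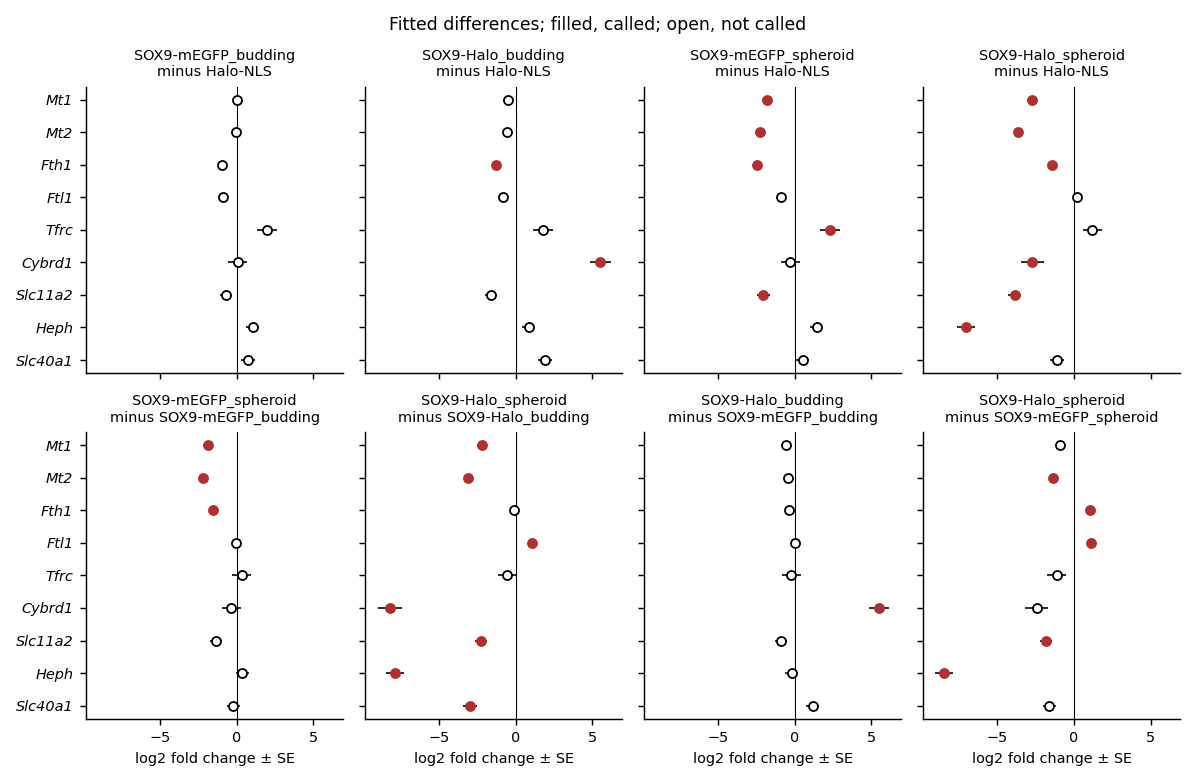
Log2 fold change with its standard error (x axis) of the 9 genes (y axis) in 8 comparisons, positive where the condition named on top is higher. Filled points are called by edgeR's quasi-likelihood test and open points are not; no point is filled for SOX9-mEGFP_budding against Halo-NLS.

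Both metallothionein genes fell in both spheroid lines. Mt1 had 7959.5, 6409 and 3848 CPM in the Halo-NLS libraries, 6337, 6935 and 5560.5 CPM in SOX9-mEGFP_budding and 2698, 5791 and 4079 CPM in SOX9-Halo_budding. In SOX9-mEGFP_spheroid it had 1892, 1232 and 1938 CPM, and in SOX9-Halo_spheroid 974, 903 and 824 CPM. The 9 libraries of control and budding organoids overlapped one another, and all 6 spheroid libraries lay below them, with SOX9-Halo_spheroid below SOX9-mEGFP_spheroid. Mt1 fell 3.60-fold in SOX9-mEGFP_spheroid (log2 fold change -1.85 ± 0.30, SE, n = 3 per condition, edgeR adjusted p = 0.0002) and 6.75-fold in SOX9-Halo_spheroid (-2.75 ± 0.31, adjusted p = 4.3e-06) against Halo-NLS. Against budding organoids of the same line it fell 3.72-fold (-1.90 ± 0.30, adjusted p = 0.00024) and 4.65-fold (-2.22 ± 0.31, adjusted p = 3.3e-05).

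Mt2, too, was lower in both spheroids than in the other conditions, and lower in SOX9-Halo_spheroid than in SOX9-mEGFP_spheroid. It had 759, 636 and 539 CPM in Halo-NLS, 514, 625 and 692 CPM in SOX9-mEGFP_budding and 388, 502 and 428 CPM in SOX9-Halo_budding. The SOX9-mEGFP_spheroid libraries had 143, 102 and 147 CPM, and in SOX9-Halo_spheroid 50.7, 55.5 and 47.3 CPM. By mean, the order of conditions was Halo-NLS, both budding conditions and both spheroids, and of neighbours in it only Halo-NLS and SOX9-mEGFP_budding overlapped. Mt2 fell 4.92-fold (-2.30 ± 0.21, adjusted p = 8e-07) and 12.6-fold (-3.65 ± 0.22, adjusted p = 9.4e-09) in SOX9-mEGFP_spheroid and SOX9-Halo_spheroid against Halo-NLS. Between spheroids it was 2.56-fold lower in SOX9-Halo_spheroid (-1.35 ± 0.20, adjusted p = 0.00015), whereas Mt1 was 1.87-fold lower (-0.91 ± 0.30, adjusted p = 0.038) and was not called. Neither budding condition had a called difference in Mt1 or Mt2 against Halo-NLS, and the largest fitted value was -0.55 ± 0.20 for Mt2 in SOX9-Halo_budding (adjusted p = 0.063).

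The ratio of Mt1 to Mt2 CPM ran from 6.95 to 12.3 in the 9 control and budding libraries and from 12.1 to 19.2 in the 6 spheroid libraries, with the highest values, 16.3 to 19.2, in SOX9-Halo_spheroid. Per kilobase of canonical transcript, Mt1 was at 7969 CPM and Mt2 at 861 CPM in Halo-NLS. Of the exonic bases of Mt2, 82.4% are shared with the antisense gene Gm45774. Reads were counted without strand, so a read that touched any of these bases belonged to neither gene. Gm45774 itself had 9 to 153 counts per library. The level of Mt2 relative to that of Mt1 is therefore uncertain, while Mt1 shares no exonic base with another gene.

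**Figure D4:**
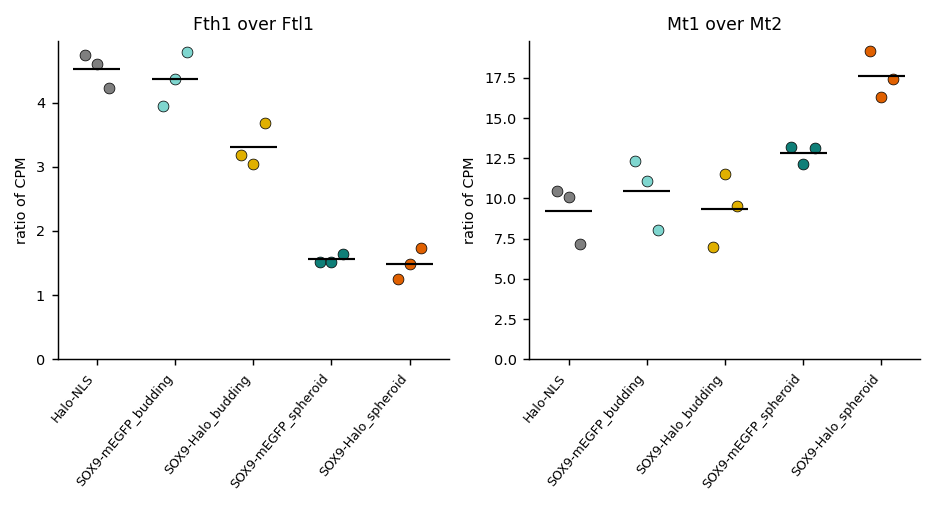
Ratio of Fth1 to Ftl1 CPM (left) and of Mt1 to Mt2 CPM (right), both on linear axes from 0, in the 5 conditions (x axis); points are libraries and lines the means. The Fth1 ratio is 1.26 to 1.73 in the 6 spheroid libraries and 3.04 to 4.79 in the other 9.

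Ferritin heavy chain mRNA was highest in the control and lower in every SOX9 condition. Fth1 (chr19:9957911-9962462, plus strand) had 4444, 4319 and 3786 CPM in Halo-NLS, 2254, 2436 and 1813 CPM in SOX9-mEGFP_budding and 1542, 1910.3 and 1571 CPM in SOX9-Halo_budding. In SOX9-mEGFP_spheroid it had 716, 734 and 801 CPM, and in SOX9-Halo_spheroid 1927, 1366 and 1264 CPM. All 12 SOX9 libraries lay below the 3 Halo-NLS libraries, and the 3 of SOX9-mEGFP_spheroid lay below all others. Against Halo-NLS, Fth1 fell 2.50-fold in SOX9-Halo_budding (-1.32 ± 0.20, adjusted p = 0.0011), 5.57-fold in SOX9-mEGFP_spheroid (-2.48 ± 0.21, adjusted p = 3.9e-07) and 2.75-fold in SOX9-Halo_spheroid (-1.46 ± 0.20, adjusted p = 2.4e-05). In SOX9-mEGFP_budding the fitted difference was 1.93-fold (-0.95 ± 0.20, adjusted p = 0.0085), just under the fold threshold. In a fit of the 6 compared libraries alone the SOX9-Halo_budding value was -1.31 with an adjusted p of 0.039, and was not called.

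The lines parted in spheroids. Fth1 fell 2.89-fold from budding organoids to spheroids in the SOX9-mEGFP line (-1.53 ± 0.20, adjusted p = 3.6e-05), whereas in the SOX9-Halo line the difference was -0.14 ± 0.19 (adjusted p = 0.61) and the libraries overlapped. It was 2.02-fold higher in SOX9-Halo_spheroid than in SOX9-mEGFP_spheroid (1.02 ± 0.20, adjusted p = 0.0013). Without SOX9-Halo_spheroid replicate 1, the highest of its group, this value for Fth1 was 0.81, and without SOX9-mEGFP_spheroid replicate 1 or 2 it was 0.97 or 1.00, all under the fold threshold.

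Ferritin light chain mRNA did not follow the heavy chain from budding organoids to spheroids. Ftl1 (chr7:45107367-45109308, minus strand) had 937, 938 and 897 CPM in Halo-NLS, 571, 558 and 379 CPM in SOX9-mEGFP_budding, 484, 629 and 426 CPM in SOX9-Halo_budding and 475, 484 and 489 CPM in SOX9-mEGFP_spheroid. In SOX9-Halo_spheroid it had 1532, 917 and 731 CPM. The budding conditions and SOX9-mEGFP_spheroid overlapped one another below the control, and SOX9-Halo_spheroid overlapped the control. No comparison of Ftl1 with Halo-NLS was called, with fitted differences of -0.88 ± 0.25, -0.85 ± 0.25 and -0.94 ± 0.25 in SOX9-mEGFP_budding, SOX9-Halo_budding and SOX9-mEGFP_spheroid (adjusted p = 0.035, 0.033 and 0.0071) and 0.20 ± 0.25 in SOX9-Halo_spheroid (adjusted p = 0.54). Ftl1 rose 2.07-fold from SOX9-Halo_budding to SOX9-Halo_spheroid (1.05 ± 0.25, adjusted p = 0.0037) and was 2.20-fold higher in SOX9-Halo_spheroid than in SOX9-mEGFP_spheroid (1.14 ± 0.25, adjusted p = 0.0039). Both calls were lost without SOX9-Halo_spheroid replicate 1, where the values for Ftl1 were 0.69 and 0.78 (adjusted p = 0.026 and 0.023). The rise was also lost without SOX9-Halo_budding replicate 1 or 3 (adjusted p = 0.018 in each) and the difference between spheroids without any 1 of the SOX9-mEGFP_spheroid libraries (adjusted p = 0.015 to 0.020). With the replicate number as a block within the SOX9-Halo line, the rise of Ftl1 was 0.99 (adjusted p = 0.0033), just under the fold threshold.

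The ratio of Fth1 to Ftl1 CPM was 3.04 to 4.79 in the 9 control and budding libraries and 1.26 to 1.73 in the 6 spheroid libraries of both lines, with no overlap. In SOX9-mEGFP_spheroid this came with a fall of Fth1 at a level of Ftl1 that overlapped the budding organoids, and in SOX9-Halo_spheroid with a level of Fth1 that overlapped the budding organoids and a rise of Ftl1. Of the exonic bases, 41.5% of Fth1 are shared with Gm36913 and 34.6% of Ftl1 with Gm10252 and Gm56125, which had at most 8 counts in any library. Reads that touched any of these shared bases belonged to neither gene, so the level of Fth1 relative to that of Ftl1 is uncertain. The 3 listed processed copies of each ferritin gene held at most 0.0978% of the reads of Fth1 and 0.0444% of those of Ftl1, and since only unique alignments were kept, reads shared with copies are missing from both genes.

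Transferrin receptor mRNA differed 11.3-fold among the control libraries. Tfrc (chr16:32427556-32451612, plus strand) had 219, 19.4 and 50.2 CPM in Halo-NLS, 359, 393 and 389 CPM in SOX9-mEGFP_budding and 456, 115 and 407 CPM in SOX9-Halo_budding. The SOX9-mEGFP_spheroid libraries had 408, 588 and 448 CPM, and in SOX9-Halo_spheroid 246, 206 and 206 CPM. Both SOX9-mEGFP conditions lay above all Halo-NLS libraries, while replicate 1 of Halo-NLS overlapped SOX9-Halo_budding and SOX9-Halo_spheroid. Tfrc rose 5.00-fold in SOX9-mEGFP_spheroid (2.32 ± 0.65, adjusted p = 0.0089). Its other fitted differences from Halo-NLS were 1.98 ± 0.65 in SOX9-mEGFP_budding, 1.76 ± 0.64 in SOX9-Halo_budding and 1.19 ± 0.63 in SOX9-Halo_spheroid (adjusted p = 0.051, 0.065 and 0.13).

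These values depended on Halo-NLS replicate 1. Without it, Tfrc was called higher in all 4 SOX9 conditions, by 3.46 and 3.80 on the log2 scale for SOX9-mEGFP_budding and SOX9-mEGFP_spheroid and by 3.24 and 2.67 for SOX9-Halo_budding and SOX9-Halo_spheroid. That fit kept only the Halo-NLS libraries at 19.4 and 50.2 CPM. It also raised the calls over all genes against Halo-NLS, from 484 to 2184 in SOX9-mEGFP_budding and from 659 to 2370 in SOX9-Halo_budding. Leaving out any other library of the comparison ended the call in SOX9-mEGFP_spheroid, with values of 1.84 to 2.43 and adjusted p of 0.015 to 0.043 for Tfrc, as did a fit of the 6 compared libraries alone (2.25, adjusted p = 0.044). In the 4 comparisons among SOX9 conditions Tfrc had no called difference. The difference between spheroids was -1.13 ± 0.63 (adjusted p = 0.22), although all 3 SOX9-Halo_spheroid libraries lay below all 3 of SOX9-mEGFP_spheroid.

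Of the apical uptake genes, Cybrd1 was low in all conditions but SOX9-Halo_budding. Cybrd1 (chr2:70948267-70973270, plus strand) had 1.29, 1.16 and 0.375 CPM in Halo-NLS, 1.52, 0.805 and 0.65 CPM in SOX9-mEGFP_budding and 34.8, 83.4 and 11.9 CPM in SOX9-Halo_budding. Levels in SOX9-mEGFP_spheroid were 0.661, 0.806 and 0.823 CPM, and in SOX9-Halo_spheroid 0.176, 0.0846 and 0.161 CPM, which were 5, 3 and 6 counts. The 3 SOX9-Halo_budding libraries lay above all 12 others, and differed 7.02-fold among themselves. Cybrd1 rose 45.9-fold in SOX9-Halo_budding against Halo-NLS (5.52 ± 0.66, adjusted p = 0.00025) and was 44.2-fold higher than in SOX9-mEGFP_budding (5.47 ± 0.66, adjusted p = 0.00042). In fits of the compared libraries alone these values for Cybrd1 were 5.51 and 5.48, with adjusted p of 0.027 and 0.034.

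From SOX9-Halo_budding to SOX9-Halo_spheroid Cybrd1 fell 304-fold (-8.25 ± 0.78, adjusted p = 7.4e-07). It also fell 6.62-fold in SOX9-Halo_spheroid against Halo-NLS (-2.73 ± 0.75, adjusted p = 0.0074), where the counts were 33, 34 and 10 in the control. That call for Cybrd1 was lost in 5 of the 6 fits that left out a library and with library sizes alone, at values of -2.44 to -2.89. In SOX9-mEGFP_spheroid the difference was -0.30 ± 0.62 (adjusted p = 0.70).

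The divalent metal transporter gene was highest in the control and lowest in SOX9-Halo_spheroid. Slc11a2 (chr15:100285776-100322953, minus strand) had 540.4, 772 and 899 CPM in Halo-NLS, 753, 409 and 204 CPM in SOX9-mEGFP_budding and 249.6, 338 and 140.5 CPM in SOX9-Halo_budding. In SOX9-mEGFP_spheroid it had 223, 164 and 145 CPM, and in SOX9-Halo_spheroid 48.9, 51.9 and 50.6 CPM. Each condition overlapped its neighbour in this order except SOX9-Halo_spheroid, whose libraries lay below all 12 others. Against Halo-NLS, Slc11a2 fell 4.15-fold in SOX9-mEGFP_spheroid (-2.05 ± 0.41, adjusted p = 0.00084) and 14.6-fold in SOX9-Halo_spheroid (-3.87 ± 0.44, adjusted p = 3.9e-06). The fitted differences in SOX9-mEGFP_budding and SOX9-Halo_budding were -0.69 ± 0.39 (adjusted p = 0.22) and -1.60 ± 0.40 (adjusted p = 0.017).

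Within the SOX9-Halo line Slc11a2 fell 4.81-fold from budding organoids to spheroids (-2.27 ± 0.41, adjusted p = 0.00036), and within the SOX9-mEGFP line the difference was -1.36 ± 0.40 (adjusted p = 0.018). It was 3.52-fold lower in SOX9-Halo_spheroid than in SOX9-mEGFP_spheroid (-1.81 ± 0.40, adjusted p = 0.0037), a call that was lost without SOX9-mEGFP_spheroid replicate 1 or any 1 of the SOX9-Halo_spheroid libraries, at an adjusted p of 0.017 in each. Both Slc11a2 and the summed enterocyte markers were lowest in SOX9-Halo_spheroid. In SOX9-mEGFP_spheroid the markers were lower than in every control and budding library, and Slc11a2 overlapped SOX9-mEGFP_budding and SOX9-Halo_budding. A link between the levels of Slc11a2 and of the markers was not tested.

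Ferroportin mRNA was highest in SOX9-Halo_budding. Slc40a1 (chr1:45947211-45965683, minus strand) had 18.6, 9.75 and 7.12 CPM in Halo-NLS, 28.5, 20.6 and 9.91 CPM in SOX9-mEGFP_budding and 49.5, 35.3 and 47.2 CPM in SOX9-Halo_budding. Levels in SOX9-mEGFP_spheroid were 23.0, 19.2 and 8.29 CPM, and in SOX9-Halo_spheroid 7.38, 4.62 and 4.59 CPM. The SOX9-Halo_budding libraries lay above all 12 others, and the remaining conditions overlapped their neighbours. Slc40a1 fell 7.96-fold from SOX9-Halo_budding to SOX9-Halo_spheroid (-2.99 ± 0.47, adjusted p = 0.00011), and none of the other 7 comparisons of conditions was called. The difference between SOX9-Halo_budding and Halo-NLS was 1.90 ± 0.45 (adjusted p = 0.014), and Slc40a1 was called there in 5 of 12 alternative fits at the same thresholds.

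Hephaestin mRNA was nearly lost in SOX9-Halo_spheroid and in no other condition. Heph (chrX:95498965-95621010, plus strand) had 129, 61.4 and 39.8 CPM in Halo-NLS, 209, 182 and 86.7 CPM in SOX9-mEGFP_budding and 149.7, 150.1 and 111 CPM in SOX9-Halo_budding. In SOX9-mEGFP_spheroid it had 223, 236 and 159 CPM, and in SOX9-Halo_spheroid 0.988, 0.479 and 0.295 CPM, or 28, 17 and 11 counts. The other 4 conditions overlapped their neighbours, with SOX9-mEGFP_spheroid the highest by mean. Heph fell 133-fold in SOX9-Halo_spheroid against Halo-NLS (-7.06 ± 0.57, adjusted p = 1.4e-07), 238-fold against SOX9-Halo_budding (-7.89 ± 0.59, adjusted p = 7.6e-08) and was 357-fold lower than in SOX9-mEGFP_spheroid (-8.48 ± 0.60, adjusted p = 1.3e-07). These 3 calls for Heph held in all 12 to 13 alternative fits at the same thresholds. In SOX9-mEGFP_spheroid Heph had a fitted difference of 1.42 ± 0.43 from Halo-NLS (adjusted p = 0.013), beside summed enterocyte markers that were 204 to 507 CPM there.

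Whether the change from budding organoids to spheroids differed between the lines was tested as an interaction, in which 1.81% of all genes were called with a higher and 5.58% with a lower change in the SOX9-Halo line. Of the members, 1 was called higher (Fth1) and 3 lower (Cybrd1, Slc40a1 and Heph). The difference in change was 1.39 ± 0.28 on the log2 scale for Fth1 (adjusted p = 0.0031), -7.89 ± 0.96 for Cybrd1 (adjusted p = 5.2e-05), -2.77 ± 0.63 for Slc40a1 (adjusted p = 0.0077) and -8.26 ± 0.70 for Heph (adjusted p = 1.8e-06). The values for Cybrd1 and Slc40a1 included the high level of both genes in SOX9-Halo_budding, while that for Heph came from SOX9-Halo_spheroid alone. The metallothionein genes fell in both lines, with differences in change of -0.32 ± 0.42 for Mt1 (adjusted p = 0.72) and -0.88 ± 0.28 for Mt2 (adjusted p = 0.054). For Ftl1, Tfrc and Slc11a2 the differences were 1.11 ± 0.36, -0.91 ± 0.88 and -0.91 ± 0.55 (adjusted p = 0.056, 0.61 and 0.36).

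**Figure D5:**
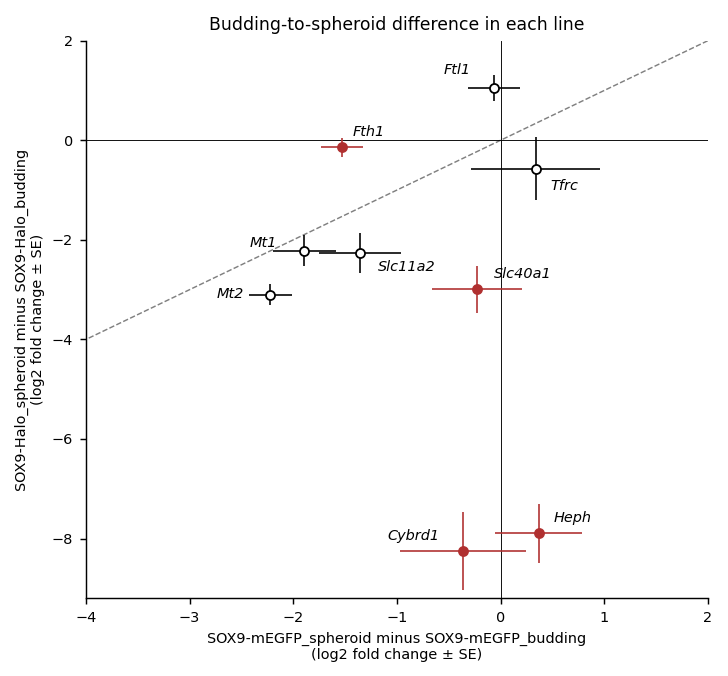
Log2 fold change from budding organoids to spheroids in the SOX9-mEGFP line (x axis) and the SOX9-Halo line (y axis) for the 9 genes, with standard errors; on the dashed line both are equal. Filled red points (Fth1, Slc40a1, Heph and Cybrd1) differed between the lines in the interaction test.

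The genes most like each member were taken by Pearson's r of log2 CPM over the 15 libraries, as a description of samples that share conditions. Mt1 was most like Mt2 (r = 0.975) and Usp2, a deubiquitinase (0.968), and Mt2 was most like Defa24, an alpha-defensin (0.990), and Lyz1, a lysozyme (0.984). Heph went with Clic6 (0.992) and Lcp1 (0.990), Tfrc with Gnai3 (0.985) and Birc2 (0.980), and Slc11a2 with Eepd1 and Gpt (both 0.981). Fth1 went with Ccs, the copper chaperone of superoxide dismutase (0.947), and Snx15 (0.944). Ftl1 went with a gene listed without a symbol (0.951) and Gstm2 (0.948), and Slc40a1 with Mccc1 (0.920) and Entpd5 (0.919). The closest genes to Cybrd1, Slc20a1 and Kcns3, reached only 0.894 and 0.890. Among the members, Cybrd1 and Slc40a1 had an r of 0.836, Mt2 and Slc11a2 of 0.861, and Fth1 and Ftl1 of 0.507.

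Other genes of metal handling were described from 6 lists with 91 genes, of which 83 were tested. Against Halo-NLS, 1 of them rose in SOX9-mEGFP_budding (Bmp6), where 1.99% of all genes tested rose. In SOX9-Halo_budding 2 fell, where 1.26% of all genes fell. In SOX9-mEGFP_spheroid 10 rose and 18 fell, where 15.3% of all genes tested rose and 12.1% fell. In SOX9-Halo_spheroid 6 rose and 18 fell, where 13.6% of all genes rose and 15.3% fell. These shares are the background for the counts of each list. The median log2 fold change of all genes was 0.03 in SOX9-mEGFP_spheroid and -0.01 in SOX9-Halo_spheroid. In the list on the transferrin cycle and ferrireductases, 3 genes rose and 3 fell of 12 in SOX9-mEGFP_spheroid and 2 rose and 5 fell in SOX9-Halo_spheroid (medians -0.21 and -1.15). Trf, which encodes transferrin, the ligand of the transferrin receptor, was at 2.65 to 6.93 CPM in the 9 control and budding libraries, at 3105 to 3989 CPM in SOX9-mEGFP_spheroid and at 103 to 338 CPM in SOX9-Halo_spheroid. Against Halo-NLS, Trf rose by 9.94 ± 0.50 on the log2 scale in the former and by 5.74 ± 0.42 in the latter (adjusted p = 7e-09 and 5.8e-08). The endosomal ferrireductase gene Steap3 fell in SOX9-mEGFP_spheroid (-1.65, adjusted p = 0.00043), and Slc39a14 and Slc39a8, which encode importers of zinc, iron and manganese, fell in SOX9-Halo_spheroid (-2.43 and -1.66, adjusted p = 5.7e-06 and 0.00011).

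In the list on haem, Hmox1, which encodes haem oxygenase, an enzyme that frees iron from haem, was at 8.49 to 21.0 CPM in control and budding libraries, 36.0 to 55.6 CPM in SOX9-mEGFP_spheroid and 74.1 to 275 CPM in SOX9-Halo_spheroid. It rose by 2.89 in SOX9-Halo_spheroid (adjusted p = 2.5e-05), and the haem transporter gene Slc48a1 by 1.22 (adjusted p = 0.00014). Of the 18 genes of the list, 4 fell in SOX9-mEGFP_spheroid, and 2 rose and 4 fell in SOX9-Halo_spheroid (medians -0.56 and -0.40, beside 12.1% of all genes lower in the former and 13.6% higher and 15.3% lower in the latter). In the list on iron sensing and the hepcidin axis, 3 of 11 tested genes rose in SOX9-mEGFP_spheroid, where 15.3% of all genes rose. They were Bmp6, Ncoa4, the receptor for the breakdown of ferritin, and Hif1a (4.34, 1.29 and 1.87, edgeR adjusted p = 4.2e-06, 0.0086 and 0.0063). In Halo-NLS, Bmp6 was at 0.171 to 0.599 CPM, Ncoa4 at 41.5 to 107 CPM and Hif1a at 12.5 to 60.9 CPM. The levels in SOX9-mEGFP_spheroid were 5.13 to 11.9, 133 to 185 and 88.6 to 117 CPM. Epas1, which encodes a hypoxia-inducible factor known to act on Slc11a2 and Cybrd1, was the only gene of the list called in SOX9-Halo_spheroid, where it fell (-3.67, adjusted p = 1.7e-05) and had a fitted difference of 1.40 ± 0.43 in SOX9-mEGFP_spheroid (adjusted p = 0.015).

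In the list on mitochondrial iron, 8 of 25 tested genes fell in SOX9-mEGFP_spheroid, where 12.1% of all genes fell. In SOX9-Halo_spheroid 4 fell, where 15.3% of all genes fell. Among the 8 was Slc25a28, a mitochondrial iron importer gene (-1.92, edgeR adjusted p = 5.5e-07). The list was not tested as a set. The median of this list was -0.64 and -0.45, beside 0.03 and -0.01 for all genes tested. Among the other metallothionein and zinc genes, Mt4 was at 18.3 to 68.4 CPM in control and budding libraries, 0.454 to 3.78 CPM in SOX9-mEGFP_spheroid and at most 0.106 CPM in SOX9-Halo_spheroid, and was called lower in both (adjusted p = 0.00014 and 1e-06). The metal exporter gene Slc30a10 was at 18.2 to 54.0 CPM, 4.27 to 7.27 CPM and at most 0.0537 CPM in the same groups. In the same list, the zinc importer gene Slc39a10 was higher in both spheroids (5.04 and 5.01, adjusted p = 2.6e-06 and 1.6e-06) and the importer gene Slc39a4 in SOX9-mEGFP_spheroid alone among the comparisons of spheroids with Halo-NLS (2.57, adjusted p = 1.2e-05, against 0.09, adjusted p = 0.82). Of the 8 genes of this list, 2 rose and 2 fell in SOX9-mEGFP_spheroid and 1 rose and 2 fell in SOX9-Halo_spheroid (medians -0.28 and -0.22). In the list on copper, 2 of 9 rose and 1 fell in SOX9-mEGFP_spheroid and 1 rose and 2 fell in SOX9-Halo_spheroid (medians -0.59 and -0.70). Of all genes tested, 15.3% rose and 12.1% fell in SOX9-mEGFP_spheroid and 13.6% rose and 15.3% fell in SOX9-Halo_spheroid, shares near the counts of the copper list. Ccs was lower in both (-1.77 and -1.06, adjusted p = 4.6e-06 and 0.00031) and Sod1, the superoxide dismutase gene whose product Ccs loads, in SOX9-Halo_spheroid (-1.45, adjusted p = 3.5e-05).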

How the data were processed

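Per the labels and the methods of the study, the authors trimmed reads with cutadapt 4.5, aligned them to mm39 (GRCm39) with STAR, kept unique alignments and counted them on genes with HTSeq 2.0.2 in union mode without strand. The deposited values are raw counts of reads per gene, 1 file per library. Deposited normalized counts and 7 tables of the authors' comparisons (log2 fold changes and p-values) were not used. Reads on more than 1 gene (9.65% to 13.6% of a library) and on no gene (1.83% to 6.09%) were left out of library sizes.

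Counts were filtered with filterByExpr (17560 genes kept), scaled with TMM and fitted with edgeR 4.0.16 (limma 3.58.1, R 4.3.3) as 1 quasi-likelihood model with a coefficient per condition over all 15 libraries. The script was tested on simulated data. SE is the absolute log2 fold change over the square root of F. Differences were adjusted after Benjamini-Hochberg over all genes tested. DESeq2 1.42.0 and other settings were alternatives. Tables and figures used Python 3.11.15, pandas 2.3.3, numpy 2.4.6 and matplotlib 3.10.9. Of 78298 gene identifiers, 78168 were in GENCODE M39, from which positions were taken.

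Members, lists and comparisons were chosen with earlier results of these data known, and no test over a list was made. A further enterocyte marker is not reported here. All 9 members are named. Of each wider list, up to 4 genes called in a spheroid comparison were named by highest mean count. The genes most alike were sought at mean normalized counts of 100 or more. Replicate numbers were checked for pairing by the correlation of deviations from condition means over 11054 genes. All 3 same-numbered pairs exceeded 0.1 only between SOX9-Halo_budding and SOX9-Halo_spheroid (r = 0.403, 0.234 and 0.344), by this correlation alone. Single pairs were higher elsewhere, with r of 0.470, 0.817 and -0.0545 between SOX9-Halo_budding and Halo-NLS. Between budding organoids of both lines r was 0.0402, 0.358 and 0.740.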

Additional observations from a re-analysis of the deposited data

Results flagged for a closer look

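For 4 members the change from budding organoids to spheroids differed between the SOX9-Halo and SOX9-mEGFP lines in the test of the difference itself (edgeR's quasi-likelihood test, Benjamini-Hochberg adjusted). Fth1 fell in the SOX9-mEGFP line and not in the SOX9-Halo line (difference 1.39 on the log2 scale). Cybrd1 (-7.89) and Slc40a1 (-2.77) fell in the SOX9-Halo line, from levels that were high in SOX9-Halo_budding. Heph (-8.26) fell in the SOX9-Halo line to 11 to 28 counts per library, while its SOX9-mEGFP libraries overlapped. Each line has its own passages and H2B transgene, so the fusion tag cannot be told apart from these. Calls for Heph and Cybrd1 held without each of the 12 libraries in turn. That for Fth1 was lost without SOX9-Halo_budding replicate 1, SOX9-mEGFP_budding replicate 2 or SOX9-mEGFP_spheroid replicate 1 or 2 (adjusted p = 0.011 to 0.013), and that for Slc40a1 without any 1 of 8 libraries, all but SOX9-Halo_budding replicate 2, SOX9-Halo_spheroid replicate 1, SOX9-mEGFP_budding replicate 1 and SOX9-mEGFP_spheroid replicate 3 (values of -2.37 to -2.83, adjusted p = 0.018 to 0.026).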

How the results depend on the processing

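Of 81 fitted values (9 genes in 9 comparisons), 33 were called and 22 of these kept their call in every alternative run. Under 1134 values from alternatives, 16 changed sign, none of them called, 43 lost a call and 46 gained one. With library sizes alone Mt2 in SOX9-mEGFP_budding against Halo-NLS turned to 0.16, and all genes shifted by 0.24 to 0.30 in the comparisons with Halo-NLS. Leaving out a library turned the other signs, with ranges against Halo-NLS of -0.20 to 0.30 (Mt1), -0.19 to 0.060 (Mt2) and -0.37 to 0.33 (Cybrd1) in SOX9-mEGFP_budding and -0.15 to 0.39 (Ftl1) in SOX9-Halo_spheroid, within the SOX9-mEGFP line of -0.28 to 0.042 (Ftl1), -0.65 to 0.074 (Cybrd1) and -0.59 to 0.14 (Slc40a1), and between budding organoids of -0.16 to 0.14 (Ftl1), -0.55 to 0.18 (Tfrc) and -0.54 to 0.025 (Heph).

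The number of members called moved from 2 to 4 with DESeq2, 5 at an adjusted p of 0.05 with no fold threshold, 5 without the low-count filter and 0 with only the libraries compared for SOX9-Halo_budding against Halo-NLS. It moved from 0 to 2 at 0.05 and to 2 without the filter for SOX9-mEGFP_budding against Halo-NLS, from 1 to 0 with only the libraries compared between budding organoids, and from 5 to 8 between spheroids at 0.05, without the filter or with only the libraries compared. With each library left out in turn it ran from 0 to 2 (SOX9-mEGFP_budding), 2 to 5 (SOX9-Halo_budding), 4 to 6 (SOX9-mEGFP_spheroid) and 5 to 6 (SOX9-Halo_spheroid) against Halo-NLS, 3 to 4 and 6 to 7 within the SOX9-mEGFP and SOX9-Halo lines, 1 to 1 between budding organoids, 2 to 5 between spheroids and 2 to 4 in the interaction. The high ends against Halo-NLS in budding organoids came without Halo-NLS replicate 1.

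With the replicate number as a block over all libraries, the members called were 0, 3, 6 and 6 against Halo-NLS in the order above, 3 and 7 within lines, 1 and 6 between budding organoids and between spheroids, and 4 in the interaction. With the replicate block within the SOX9-Halo line it was 6 in place of 7, the lost call being Ftl1.

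Over all genes, calls against Halo-NLS moved from 484 to 1197 (DESeq2), 2554 (adjusted p of 0.05), 728 (library sizes alone), 1991 (no filter) and 103 (only the libraries compared) in SOX9-mEGFP_budding and from 659 to 1602, 3204, 1177, 2357 and 5 in SOX9-Halo_budding, and without 1 library ran from 216 to 2184 and from 201 to 2370, the highest without Halo-NLS replicate 1 and the lowest without Halo-NLS replicate 2, and were over 1.5 times lower without any other library but SOX9-Halo_budding replicate 2. At 0.05 they moved from 4823 to 8081 and from 5074 to 7812 in SOX9-mEGFP_spheroid and SOX9-Halo_spheroid, from 2885 to 4500 within the SOX9-mEGFP line, from 2313 to 3871 between spheroids and from 1297 to 2131 in the interaction. Between budding organoids they moved from 80 to 196 (DESeq2), 177 (0.05), 280 (no filter), 19 (only the libraries compared) and 46 or 50 (without SOX9-mEGFP_budding replicate 2 or SOX9-Halo_budding replicate 1), and 63.8% of these calls were higher with edgeR against 46.9% with DESeq2. With library sizes alone, the share of calls that were higher against Halo-NLS went from 72.3% to 85.2%, 66.5% to 90.7%, 55.8% to 69.0% and 47.1% to 58.2% in the order above. Depth limits Cybrd1, with 3 to 6 counts per SOX9-Halo_spheroid library.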
